A study of Mus musculus with 12 samples.

Results

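Ccl2, Ccl7, Ccl8 and Ccl12 are the genes of the mouse chemokines that draw monocytes, and they were followed here through a first and a second exposure of macrophages to lipopolysaccharide (LPS). They were chosen by gene symbol. Each was read by a single probe set that carried no other symbol, and the 4 genes stand among 18193 genes tested. The cells were bone marrow cells of C57Bl/6 mice differentiated into macrophages with macrophage colony-stimulating factor (M-CSF). Restimulated cells had 100 ng/ml LPS for 18 h, a change of medium, 2 h of rest and 100 ng/ml LPS again. Pretreated cells had the same first exposure and rest but no second LPS, cells given LPS once had no first exposure and 100 ng/ml LPS at the end, and untreated cells had none at either step. How long the last exposure lasted was not given in the sources used here. Each of the 4 groups had 3 biological replicates, lettered A, B and C, and each was measured on 1 array.

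LPS comes from the outer wall of Gram-negative bacteria. Macrophages sense it through Tlr4, and this receptor switches on inflammatory genes through NF-kappaB and, by way of type I interferon, a further set of antiviral genes. Macrophages that meet LPS again respond with only some of these genes, a state called LPS tolerance. The 4 chemokines belong to the CC family. Ccl2, Ccl7 and Ccl12 act mainly through the receptor Ccr2, which calls monocytes out of the bone marrow and into tissue, while mouse Ccl8 is known to act through Ccr8. The genes lie together in a chemokine cluster on mouse chromosome 11. In RefSeq's annotation of assembly GRCm38.p6 the protein-coding genes run Ccl2, Ccl7, Ccl11, Ccl12, Ccl8, Ccl1. Ccl11 is thus the only protein-coding gene between members of the set.

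The stretch just upstream of the start is shown for Ccl12 and Ccl8, neighbours of which Ccl12 was called in the first response to LPS and Ccl8 was not. Of the 4 genes, 2 matched RefSeq's promoter table for GRCm38.p6. Each line gives the 250 bases before the start, 5′ to 3′ on the plus strand, with Ccl12 at chr11:82101595-82101844 and Ccl8 at chr11:82114935-82115184. Capitals mark the matches to the motifs searched.
Ccl12: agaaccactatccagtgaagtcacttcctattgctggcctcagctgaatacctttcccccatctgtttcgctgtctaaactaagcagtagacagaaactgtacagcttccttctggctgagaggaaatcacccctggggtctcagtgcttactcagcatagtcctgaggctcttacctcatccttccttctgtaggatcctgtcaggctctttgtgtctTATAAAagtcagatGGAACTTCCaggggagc
Ccl8: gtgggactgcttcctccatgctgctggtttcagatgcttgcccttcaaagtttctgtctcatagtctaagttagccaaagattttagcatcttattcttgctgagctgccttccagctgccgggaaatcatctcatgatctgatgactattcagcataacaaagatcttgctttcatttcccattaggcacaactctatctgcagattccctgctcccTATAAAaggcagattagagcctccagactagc
The motifs were searched on both strands, with each base position counted back from the start at -1. TATAAA, the TATA box, stood at -31 to -26 in Ccl12 and at -32 to -27 in Ccl8, and 12.3% of the 32536 promoters in the table hold it in a window of the same length. GGNNNTTCC, a short form of the NF-kappaB motif, was found in Ccl12 as GGAACTTCC at -17 to -9 and was not found in the Ccl8 window. It is in 15.7% of all promoters. Neither window held GAAANNGAA for the interferon-stimulated response element (7.15% of promoters), TTCNNNGAA for STAT dimers (7.04%), TGANTCA for AP-1 (6.73%), TTGCNNAA for C/EBP (9.57%) or the GC box GGGCGG (33.0%). Aligned end to end, the 2 windows shared 161 of 280 columns, or 57.5%.

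The restimulated C array stood apart from the other 11. Its mean intensity was 246.7, against 310 to 317 elsewhere, and 91.6% of 6228 genes of middle intensity were lower on it than in the other restimulated arrays, by a median log2 difference of -0.52. For the 4 genes, results that rest on the restimulated group are therefore also given without this array. Arrays of the same letter moved together across groups, so values with the letter as a block stand beside those results of the 4 genes whose call the block changes. The cells carried macrophage markers throughout: the summed intensity of 8 of them, Csf1r, Adgre1 and Cd68 among them, lay between 55480.17 and 65194.43 on every array. Single markers did change. Mertk had a mean of 430.817 in restimulated, 1598.36 in pretreated, 137.21 in LPS once and 1669.1 in untreated cells. Without the letters, 1 of the 8 was called lower in LPS once than in untreated cells. Against LPS once cells, 2 were called higher and 1 lower in pretreated cells, and 1 higher in restimulated cells. In restimulated against untreated cells 1 was called lower. With the letter as a block, Mertk was also called lower in restimulated than in pretreated cells (-1.89, limma adjusted p = 0.0321). It was then called higher in restimulated than in LPS once cells (1.44, adjusted p = 0.0314). Fcgr1 was called higher with the block in pretreated than in LPS once cells (1.21, adjusted p = 0.0489). The measured markers of T cells, B cells, NK cells, endothelial and dendritic cells included none called in any comparison and summed to 277.99 at most for any of these cell types on any array. In cultures measured in bulk, fewer cells of a kind and less RNA per cell cannot be told apart.

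Ccl2, the main monocyte attractant and a ligand of Ccr2, rose most of the 4 in the first response (LPS once against untreated). Its intensity in arrays A, B and C was 2180.71, 1930.6 and 1175.2 in cells given LPS once, against 96.43, 115.95 and 66.41 in untreated cells. Every array after LPS was above every untreated array. On the log2(value + 16) scale, on which all differences here are given and which understates the change of dim genes, the mean was 10.75 ± 0.47 after LPS once and 6.74 ± 0.35 in untreated cells (SD, n = 3 each). The difference was 4.01 ± 0.63 (standard error), or 16.1-fold, with a limma adjusted p of 0.00108. A gene counts as called here where it differed at least 2-fold and its p, adjusted over the 18193 genes by Benjamini-Hochberg, was under 0.05. Ranked by size of increase, Ccl2 was number 63.

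Ccl2 was lower in pretreated cells than in cells given LPS once. Pretreated cells, which were 18 h of LPS and 2 h of rest further on, held 140.85, 492.97 and 111.29, against the 1175.2 or more of cells given LPS once. The groups did not overlap, and Ccl2 was called lower in pretreated than in LPS once cells by limma, at -2.99 ± 0.63 and an adjusted p of 0.00546. Against untreated cells the pretreated arrays were higher by 1.02 ± 0.63, with overlapping arrays, a 95% interval from -0.40 to 2.44 and a limma adjusted p of 0.621. Within the replicates it was 0.48 in A, 1.95 in B and 0.63 in C, so B was the highest.

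Ccl2 was not called in the second response (restimulated against pretreated). Restimulated cells held 559.66, 838.86 and 158.7 for Ccl2. The restimulated A and B arrays lay above all pretreated arrays, while the C array lay among them. The difference was 1.03 ± 0.63, with a 95% interval from -0.39 to 2.45 and a limma adjusted p of 0.395. Without the restimulated C array it was 1.70, with an adjusted p of 0.175.

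The second response of Ccl2 was smaller than its first in each of the 3 replicates. Within replicate A the second response was 1.88 and the first 4.29, within B 0.75 and 3.88, and within C 0.46 and 3.85. The interaction, the second response minus the first, was -2.98 ± 0.90 in the fit without the replicate letters, with a limma adjusted p of 0.112, which misses the threshold. With the letter as a block the same difference had a standard error of 0.55 and a limma adjusted p of 0.0252, and was called. Without the restimulated C array the interaction was -2.31 and not called (adjusted p = 0.0918), and with the block as well it was -2.59 and called (adjusted p = 0.0205).

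The level Ccl2 reached under the second LPS was also below that under the first, with no overlap: 838.86 at most in restimulated cells and 1175.2 at least in cells given LPS once. That difference was -1.96 ± 0.63 (limma adjusted p = 0.0690), and it was called with the letter as a block (adjusted p = 0.0118). Leaving out the restimulated C array gave -1.29, not called (adjusted p = 0.150). It was called without the pretreated B array, which enters only the spread (adjusted p = 0.0382), or without the restimulated B array (-2.44, adjusted p = 0.04565). Compared with untreated cells, restimulated cells had 2.05 ± 0.63 more Ccl2, with a limma adjusted p of 0.0559, or 0.0118 with the block. Without the restimulated C array that difference was 2.71 and was called (adjusted p = 0.0182), and without the pretreated B array it was called at an unchanged 2.05 (adjusted p = 0.0333). In order of level, Ccl2 ran LPS once, restimulated, pretreated, untreated. The restimulated and pretreated arrays overlapped, as did the pretreated and untreated arrays.

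**Figure D1:**
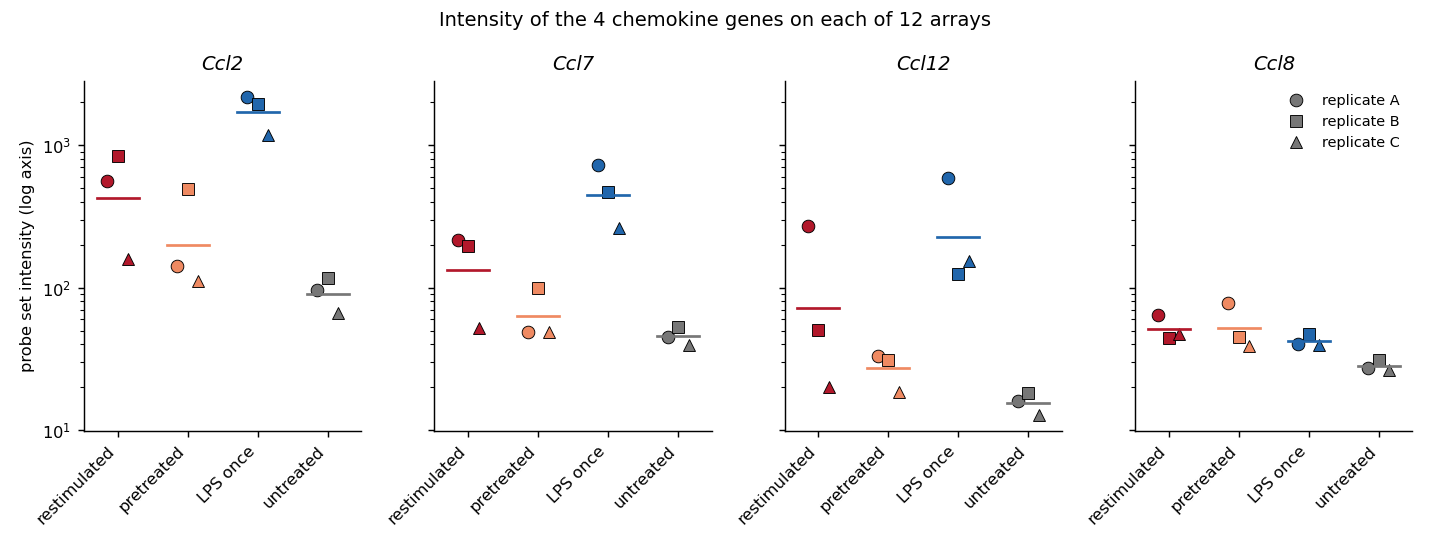
Probe set intensity (log axis) of Ccl2, Ccl7, Ccl12 and Ccl8 on each of the 12 arrays, by group, with replicate A as circles, B as squares and C as triangles, and horizontal bars at the mean of log2(value + 16) turned back to intensity. Ccl2, Ccl7 and Ccl12 are highest in cells given LPS once, and the C array is the lowest of its group for Ccl2 and Ccl7 throughout, while Ccl8 stays between 26.57 and 78.36 on all arrays.

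Ccl7, a further ligand of Ccr2 and the neighbour of Ccl2 in the cluster, was called in the same comparisons as Ccl2 in the fit without the letters and had the same order of groups. Its intensity was 721.62, 468.3 and 260.57 in cells given LPS once, against 44.74, 53.15 and 39.39 in untreated cells. The groups did not overlap, and the difference was 2.91 ± 0.49, or 7.52-fold (limma adjusted p = 0.00149), which placed Ccl7 at number 154 among increases. Pretreated cells held 49.16, 100.01 and 48.69, called lower than LPS once cells at -2.55 ± 0.49 (limma adjusted p = 0.00314). Against untreated cells they differed by 0.36 ± 0.49, with overlapping arrays, an interval from -0.74 to 1.45 and a limma adjusted p of 0.870.

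Restimulated cells held 215.63, 195.71 and 51.86 for Ccl7. The A and B arrays were above every pretreated array, and the C array was at the level of pretreated cells. The second response, 0.92 ± 0.49, was not called (limma adjusted p = 0.330), nor was it without the restimulated C array, where it was 1.49 (adjusted p = 0.0955). Within the replicates it was 1.83 in A, 0.87 in B and 0.07 in C, against first responses of 3.60, 2.81 and 2.32. The interaction of -1.99 ± 0.69 missed the threshold without the letters (limma adjusted p = 0.169) and with them as a block (adjusted p = 0.0678), and without the restimulated C array it was -1.42 (adjusted p = 0.130).

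After LPS, restimulated cells had less Ccl7 than cells given LPS once, by -1.63 ± 0.49 and without overlap. Its limma adjusted p was 0.0529, and with the letter as a block it was called (adjusted p = 0.0167). It was -1.06 and not called without the restimulated C array (adjusted p = 0.0933). It was called without the LPS once C array (-2.001, adjusted p = 0.0421) or without the restimulated A array (-1.95, adjusted p = 0.0442). Against untreated cells the restimulated arrays overlapped at 1.28 ± 0.49 (limma adjusted p = 0.103). That difference was called with the block (adjusted p = 0.0401) and, without the restimulated C array, at 1.85 (adjusted p = 0.0199).

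Ccl12, known in the mouse as a Ccr2 ligand close to Ccl2, rose in the first response with a wide spread between replicates, at an SD of 1.15 after LPS once and 0.12 in untreated cells. Cells given LPS once held 589.2, 123.95 and 154.54, against 16.11, 18.12 and 12.77 in untreated cells. The A array was the highest by far, and all 3 arrays lay above the untreated ones. The difference was 2.95 ± 0.72, or 7.71-fold (limma adjusted p = 0.0109), and Ccl12 was number 149 among increases. Without the LPS once A array it was 2.29 and still called (adjusted p = 0.0335).

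In pretreated cells Ccl12 was at 33.33, 30.88 and 18.63. These arrays lay just above the untreated ones, at a difference of 0.45 ± 0.72 that was not called (limma adjusted p = 0.895). They lay below the LPS once arrays by -2.50 ± 0.72, which was called (limma adjusted p = 0.0254). This call was lost, at adjusted p from 0.0557 to 0.0822, when the LPS once A array or any 1 of the 3 pretreated arrays was left out, with differences from -2.60 to -1.84.

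For Ccl12, restimulated cells held 269.47, 50.41 and 20.09. The A array was the highest, B was above the pretreated range and C was inside it. The second response was 1.03 ± 0.72, with an interval from -0.58 to 2.64 and a limma adjusted p of 0.449, and without the restimulated C array it was 1.68 (adjusted p = 0.297). By replicate it was 2.53 in A, 0.50 in B and 0.06 in C, against which the first response was 4.24, 2.04 and 2.57. The interaction was negative in each replicate, at -1.70, -1.53 and -2.51, but was called neither without the block (-1.92 ± 1.02, limma adjusted p = 0.385) nor with it (adjusted p = 0.215). It was -1.27 without the restimulated C array (adjusted p = 0.444). The difference of restimulated cells from cells given LPS once was -1.47 ± 0.72, with overlapping arrays (limma adjusted p = 0.231). It was -0.82 without the restimulated C array (adjusted p = 0.497), and without the restimulated A array it was called, at -2.31 (adjusted p = 0.0280). The restimulated arrays were above the untreated ones by 1.48 ± 0.72 (limma adjusted p = 0.178), or by 2.12 without the restimulated C array (adjusted p = 0.0865).

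Ccl8, in the mouse a ligand of Ccr8, was called in no comparison. It held 64.27, 44.44 and 47.3 in restimulated cells, 78.36, 45.02 and 38.84 in pretreated cells, 39.93, 47.19 and 39.72 in cells given LPS once, and 27.48, 30.97 and 26.57 in untreated cells. All 9 arrays of cells that had met LPS were above all 3 untreated arrays, and the 3 groups with LPS overlapped one another. Against untreated cells the difference was 0.61 ± 0.18 in restimulated cells, 0.62 ± 0.18 in pretreated cells and 0.39 ± 0.18 in cells given LPS once, with limma adjusted p of 0.0524, 0.193 and 0.132. With the letter as a block the difference of restimulated from untreated cells had a limma adjusted p of 0.0384, but at 1.52-fold it stayed under the 2-fold minimum.

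The second response of Ccl8 was -0.01 ± 0.18 (95% interval -0.43 to 0.40, limma adjusted p = 0.979). Its interaction was -0.41 ± 0.26 (interval -0.99 to 0.18, limma adjusted p = 0.495). Set against cells given LPS once, Ccl8 differed by 0.23 ± 0.18 in pretreated cells (limma adjusted p = 0.425) and by 0.21 ± 0.18 in restimulated cells (limma adjusted p = 0.529), where the differences of the other 3 genes were negative. Ccl8 without the restimulated C array was called in none of these comparisons either, with a second response of 0.03, an interaction of -0.36, and restimulated cells at 0.26 from cells given LPS once and 0.65 from untreated cells (limma adjusted p from 0.0866 to 0.980).

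**Figure D2:**
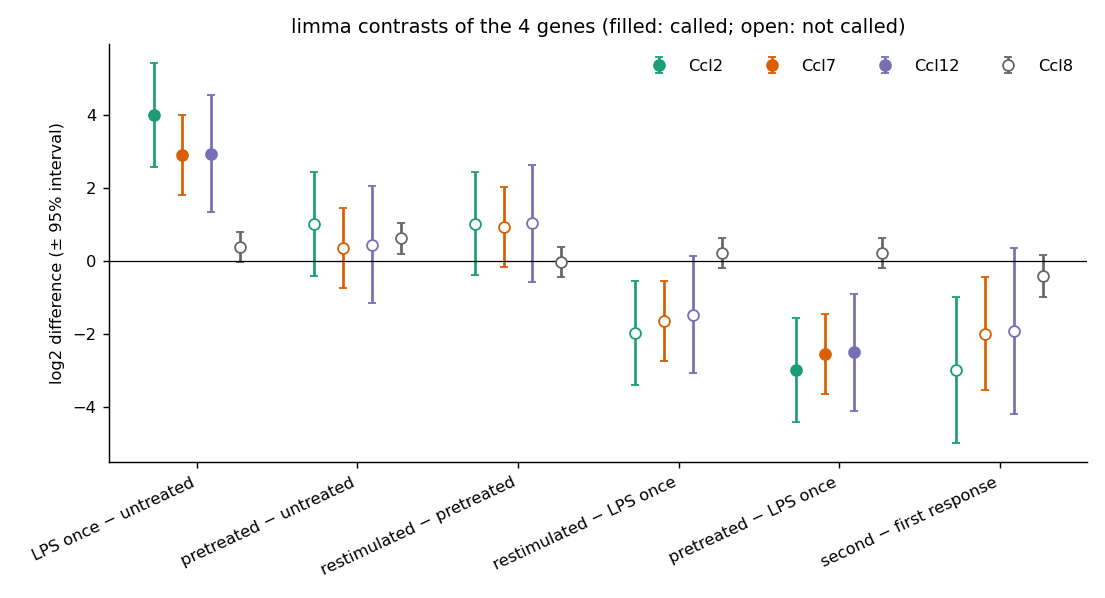
Differences of log2(value + 16) with 95% intervals from limma for the 4 genes in 6 comparisons, with filled points where the gene was called and open points where it was not. Ccl2, Ccl7 and Ccl12 are called higher after LPS once and called lower in pretreated than in LPS once cells, and all points of the second response are open.

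Over the set, 3 of the 4 genes were called higher in the first response, where 3.9% of all genes were called higher and 9.1% lower. In pretreated against LPS once cells 3 of 4 were called lower, beside 4.24% of all genes called lower and 8.87% higher. In the remaining 5 comparisons limma called 0 of 4 in the fit without the letters. Before adjustment, p was under 0.05 for 1 of 4 in pretreated against untreated cells, 0 in the second response, 2 in the interaction, 2 in restimulated against LPS once cells and 3 in restimulated against untreated cells. At this unadjusted threshold the share of all genes was not counted, so these counts have no background to be set against. The share of all genes called, by adjusted p and fold, was 0.291% higher and 0.308% lower for pretreated against untreated cells. For the second response it was 0.665% higher and 1.29% lower. It was 1.23% higher and 1.44% lower for the interaction, and 2.48% higher and 3.18% lower for restimulated against LPS once cells. For restimulated against untreated cells it was 1.36% higher and 3.9% lower. At these shares 0 of 4 in the fit without the letters is no result about the genes. With the letter as a block, 1 of 4 was called lower in the interaction, beside 1.86% of all genes. In restimulated against LPS once cells 2 of 4 were then called lower (3.71% of all genes), and against untreated cells 2 of 4 higher (1.69%). The median of the 4 genes was 0.97 in the second response, 2.93 in the first and -1.95 in the interaction, beside medians of -0.02, 0.04 and -0.02 over all genes. The first and second responses share no array, but the interaction is made from both.

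**Figure D3:**
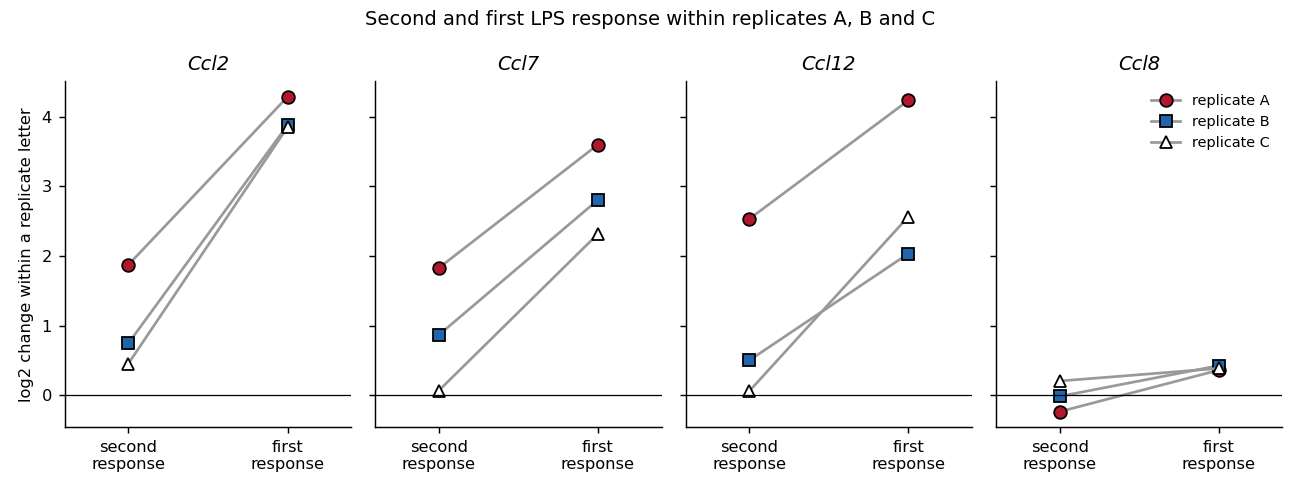
Change of log2(value + 16) within each replicate letter in the second response (restimulated minus pretreated, left) and the first response (LPS once minus untreated, right) of each panel, 1 line per replicate. For Ccl2, Ccl7 and Ccl12 every line is lower on the left, with second responses from 0.06 to 2.53 and first responses from 2.04 to 4.29, while the lines of Ccl8 lie between -0.23 and 0.43.

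How the genes moved against each other was read within arrays, as the difference between the log2 values of a pair of genes on the same array. The gap of Ccl2 over Ccl7 was 1.90 in cells given LPS once and 0.80 in untreated cells, so Ccl2 changed by 1.10 more than Ccl7, and the arrays of the groups did not overlap. Against Ccl8, the gap widened by 3.61 for Ccl2 and by 2.52 for Ccl7 in the first response, and Ccl12 gained 2.55 over Ccl8. The gap of Ccl7 over Ccl12 changed by -0.11 in the second response and by -0.04 in the first, with overlapping groups. Of 36 such comparisons, 11 had an exact two-sided permutation p of 0.1, the smallest that 3 arrays against 3 allow, and the lowest adjusted p was 0.327, so none passed.

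Across the 12 arrays the log2 values of Ccl2 and Ccl7 had a Pearson r of 0.973, those of Ccl7 and Ccl12 0.916, and those of Ccl2 and Ccl12 0.847. Ccl8 had 0.275 with Ccl2, 0.208 with Ccl7 and 0.328 with Ccl12. These coefficients describe arrays that share groups and replicate letters. After each group's mean was taken away, r was 0.894 for Ccl2 and Ccl7, 0.722 for Ccl7 and Ccl12, 0.447 for Ccl2 and Ccl12, and between -0.02 and 0.35 for the pairs with Ccl8.

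The spread between replicates followed the letters. For Ccl2 and Ccl7 the C array was the lowest of its group in 4 of 4 groups, which held for 751 of 18193 genes, or 4.13%. For Ccl12 and Ccl8 it was the lowest in 3 of 4. The collagen genes Col1a1, Col1a2 and Col3a1, which fibroblasts make, were lowest on the C array in 4 of 4 groups too, while the order of their A and B arrays differed from that of Ccl2 and Ccl7 in some groups. Summed over the 6 fibroblast markers, the intensity in A, B and C was 2402.79, 5167.32 and 225.99 in restimulated cells, 5156.51, 4861.44 and 266.95 in pretreated cells, 3270.53, 6434.87 and 298.02 in cells given LPS once, and 4468.69, 8019.63 and 213.91 in untreated cells. None of the 6 markers was called in any comparison, and Lum, 1 of the 6, was between 11.9 and 17.32 on all arrays. In replicate C, where the collagens were low, the first response was 3.85 for Ccl2, 2.32 for Ccl7 and 2.57 for Ccl12. Whether the collagen-expressing cells bear on the levels of Ccl2 and Ccl7 was not tested.

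The A array was the highest for Ccl12 in all 3 groups that had met LPS. In cells given LPS once it ran A, C, B, and in restimulated and pretreated cells A, B, C, which Ccl7 also had in restimulated cells. The summed intensity of 14 interferon-induced genes, antiviral genes such as Mx1, Ifit1 and Rsad2, had the order A, C, B in cells given LPS once, at 73475.59 in A, 38650.74 in C and 23905.4 in B. In restimulated cells it was 40816.52, 17629.55 and 9849.98 in A, B and C, and in pretreated cells 30537.13, 17829.84 and 13072.24, both in the order of Ccl12. In untreated cells it was 3290.42, 5186.22 and 2876.71, with B highest, as for Ccl12. The share of this pattern in the spread of Ccl12 was not tested. Neutrophil markers summed to between 180.53 and 1508.27 on the arrays, and none of the 6 measured was called in the fit without the letters. With the letter as a block, Ngp was called lower in restimulated against LPS once cells (-1.78, limma adjusted p = 0.0227), in pretreated against LPS once cells (-1.91, adjusted p = 0.00905) and in restimulated against untreated cells (-1.42, adjusted p = 0.0490), and Camp was called higher in restimulated against untreated cells (1.27, adjusted p = 0.0124). The part of these markers in the results of Ccl2 and Ccl7 was not tested.

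**Figure D4:**
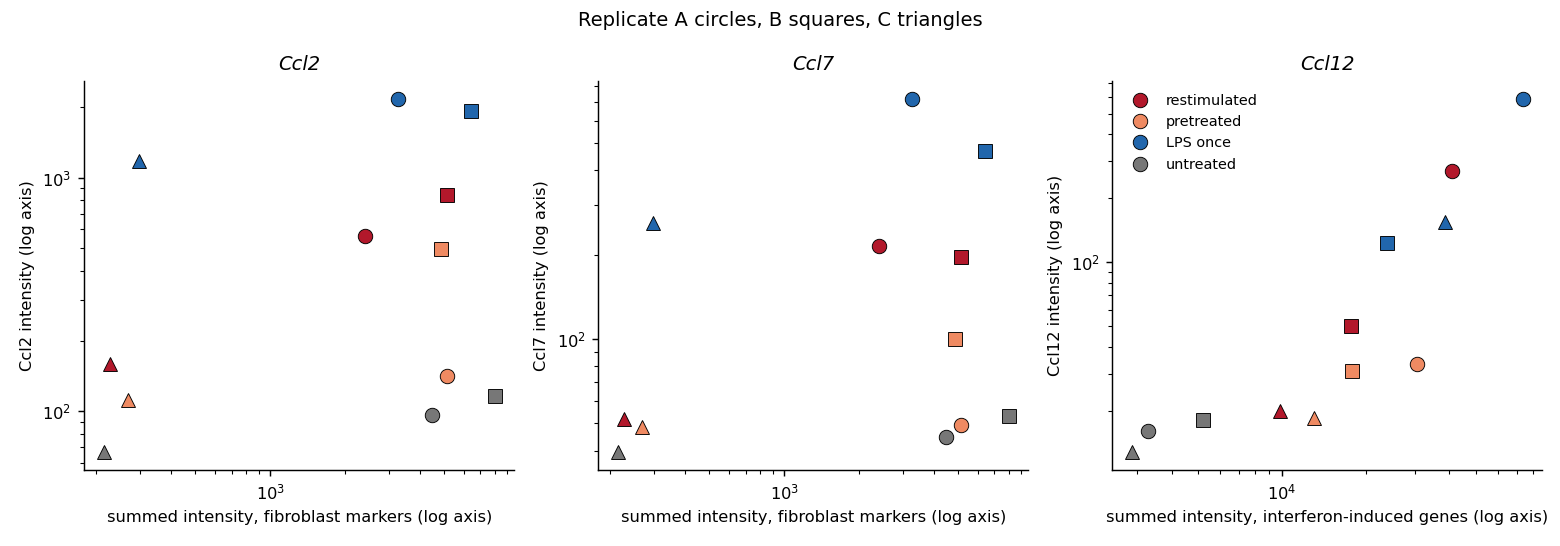
Intensity of Ccl2 and Ccl7 against the summed intensity of 6 fibroblast markers, and of Ccl12 against the summed intensity of 14 interferon-induced genes, 1 point per array on log axes, with colours for the groups and shapes for the replicate letters. The 4 C arrays lie at 213.91 to 298.02 for the fibroblast markers, each with the lowest Ccl2 and Ccl7 of its group, and on the right the A array of LPS once cells is highest on both axes.

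The receptors of these chemokines were measured on the same arrays. Of 7 receptors and decoy receptors, 1 was called higher in the first response, Ccrl2, an atypical receptor known to present chemerin. It held 385.96, 446.9 and 195.72 in restimulated cells, 111.5, 98.46 and 102.54 in pretreated cells, 2826.37, 3154.79 and 3852.17 in cells given LPS once, and 142.5, 166.73 and 151.66 in untreated cells. Ccrl2 rose in the second response (1.503 ± 0.25, limma adjusted p = 0.0137) and in the first (4.27 ± 0.25, adjusted p = 6.30e-06), and its second response was called smaller than its first (-2.77 ± 0.35, adjusted p = 0.00437). With the letter as a block Ccr3, an eosinophil receptor that also binds Ccl7, was called as well in the first response, at 1.09 (limma adjusted p = 0.0274).

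Ccr2 itself, the receptor for Ccl2, Ccl7 and Ccl12, was called in no comparison. It lay between 60.82 and 96.65 on 11 arrays and at 240.77 on the restimulated C array, the array that stands apart. Its difference was 0.50 ± 0.29 in the second response (limma adjusted p = 0.375) and 0.22 ± 0.29 in the first (adjusted p = 0.598). Ccr8, the receptor of Ccl8 in the mouse, stayed between 12.24 and 23.37 and was not called either. Ccr1, which binds Ccl7 among many CC chemokines, ranged from 34.76 in cells given LPS once to 734 in pretreated cells of replicate B, and was not called. Ackr1 and Ackr2, decoy receptors that take up inflammatory chemokines, were not called.

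Of 14 other CC chemokines measured, 6 were called higher in the first response, and 2 of them, Ccl3 and Ccl4, were called higher in the second. The second response of Ccl3 was 4.27 ± 0.29 and its first 4.48 ± 0.29, and its interaction was not called. Its level was still lower in restimulated than in LPS once cells, at 3666.78 to 5416.5 against 10587.85 to 12180.86. Pretreated cells held 159.86 to 381.93 of it and untreated cells 427.87 to 632.84. In restimulated against LPS once cells, 3 of the 14 were called lower, beside 3.18% of all genes. Ccl4 gave 3.47 ± 0.16 in the second response and 4.93 ± 0.16 in the first, and its interaction was called at -1.46 ± 0.23 (limma adjusted p = 0.0106). Ccl5, a ligand for T cells and monocytes, held 9134.02 to 11494.32 on all 9 arrays that had met LPS and 249.52 to 369.5 in untreated cells. Its interaction was called at -5.24 ± 0.20 (limma adjusted p = 1.35e-06) with its level as high in pretreated cells as after LPS once, where Ccl2, Ccl7 and Ccl12 were called lower. Ccl22, Ccl20 and Ccl17 had second responses of 0.16, 0.15 and 0.14, none called, and rose in the first response by 2.99, 1.38 and 1.07.

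In the cluster itself, Ccl11, an eosinophil attractant that lies between Ccl7 and Ccl12, was at 12.49 to 16.47 on all arrays. Ccl1, which lies beyond Ccl8 and is known as a ligand of Ccr8, was between 18.44 and 25.78 on 11 arrays and at 86.66 on the restimulated C array. Neither was called in any comparison.

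**Figure D5:**
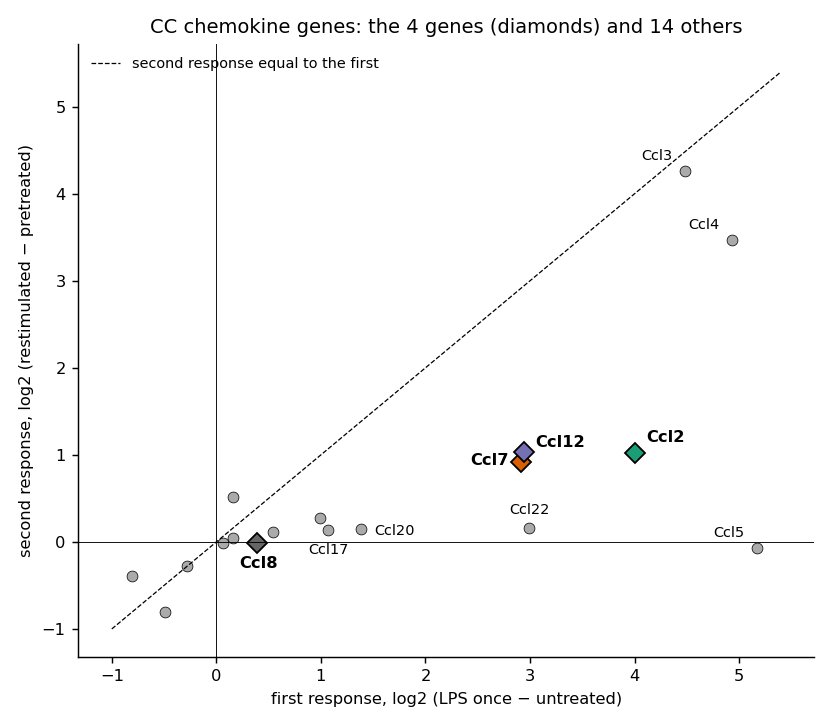
Second response against first response, both as differences of log2(value + 16), for the 4 genes (diamonds) and 14 other CC chemokine genes (circles), with a dashed line where both are equal. Ccl3 lies near the line and Ccl4 below it at 3.47, Ccl5 and Ccl22 lie far below it at about 0 on the vertical axis, and Ccl2, Ccl7 and Ccl12 lie between them at second responses of 0.92 to 1.03.

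Genes tied to NF-kappaB and to interferon changed in mixed ways. Of 10 NF-kappaB subunits and inhibitors, 6 were called higher in the second response, or 5 without the restimulated C array, and 8 in the first. A smaller second response was called for 2, the subunit gene Rel (-2.47 ± 0.29, limma adjusted p = 0.00312) and the inhibitor Nfkbib (-1.39 ± 0.22, adjusted p = 0.0117). With the letter as a block there were 3, with Bcl3 (-1.68) added. Of 14 interferon-induced genes, limma called 0 higher in the second response, where 0 also had an unadjusted p under 0.05, and 12 in the first. For 7 the second response was called smaller, among them Oasl1 (-4.92) and Gbp2 (-4.83), or for 9 with the letter as a block. Before adjustment, limma's p for a smaller second response was under 0.05 for 12 of the 14. For this unadjusted threshold, here and below, the share of all genes was not counted. The median of the 14 was -0.01 in the second response, 3.78 in the first and -3.82 in the interaction. In pretreated cells 4 of them were called higher than in untreated cells, or 7 with the letter as a block. Leaving out the restimulated C array, which enters only the spread here, gave 8. The median of the 14 in this comparison was 2.72, and limma's unadjusted p was under 0.05 for 12, all higher. In restimulated against LPS once cells their median was -1.23. There 0 were called, or 3 lower with the block, and 6 had an unadjusted p under 0.05 in limma's fit, all lower. Of 12 interferon response factors, 3 were called higher and 1 lower in the first response, and Irf1, a factor induced by interferon, had a smaller second response (-1.98 ± 0.39, limma adjusted p = 0.0263), as did Irf9 with the letter as a block (-1.09, adjusted p = 0.0409).

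Among 15 chemokines of the CXC, XC and CX3C families, 3 were called higher in the second response, or 1 without the restimulated C array, and 7 in the first. Called smaller in the second response were 3: Cxcl10 (-3.86), Cxcl9 (-3.07) and Cx3cl1 (-1.24). Cxcl3 (-4.02), Cxcl1 (-3.25) and Cxcl11 (-3.12) also had negative interactions but were not called, and the median of the 15 was -0.81. Of 6 genes of interleukin 10 and STAT3 signalling, 1 was called higher in the second response and 4 in the first. For 3 a smaller second response was called, led by Il10, an anti-inflammatory cytokine, at -5.40. With the letter as a block there were 4, with Socs3 (-2.08) added. Of 8 genes of mRNA decay and stability, 1 was called higher in the second response, or 0 without the restimulated C array. In the first, 2 were called higher and 2 lower. Zfp36l2, which destabilises AU-rich transcripts, had a positive interaction (2.96 ± 0.54, limma adjusted p = 0.0196). Its mean fell less in the second response, from 4219.41 to 1692.51, than in the first, from 4921.63 to 274.853. With the letter as a block Zc3h12a had a negative interaction (-1.19, limma adjusted p = 0.0483). Of 11 AP-1 and C/EBP factors, 1 was called higher in the second response, and 3 higher and 3 lower in the first. In the interaction 0 were called, or 1 higher without the restimulated C array. There limma's unadjusted p was under 0.05 for 2 positive and 2 negative values. The largest interactions, neither called, were those of Fos (2.70, limma adjusted p = 0.112) and Cebpa (1.52, adjusted p = 0.211).

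The genes most like each chemokine over the 12 arrays were taken by Pearson r of the log2 values, from 3422 genes whose highest and lowest group means differed by at least 1 (3423 for Ccl8, which is not among them). They were Ccl7 (0.973), Rnaset2a (0.962), Msantd3 (0.960), Pla2g4a (0.959) and Car13 (0.958) for Ccl2. For Ccl7 they were Bambi-ps1 (0.977), Ccl2 (0.973), Snrnp35 (0.965), Ak4 (0.964) and Fbxl5 (0.962). For Ccl12 they were Mx2 (0.976), Tent4a (0.976), Ccdc86 (0.965), Daxx (0.962) and Gm9706 (0.958). Ccl8 had lower values, with Bvht (0.827), H2-T24 (0.802), Marco (0.798), Oasl2 (0.788) and C1ra (0.786).

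These genes were called in different comparisons. Of the genes like Ccl2, Car13 and Pla2g4a were called higher in the first response, at 3.43 ± 0.21 and 2.58 ± 0.27, and lower in restimulated than in LPS once cells, at -1.76 and -1.43. Mx2, an interferon-induced gene and the one most like Ccl12, was at 0.89 ± 0.66 in the second response, not called, and was called in the first at 3.66 ± 0.66 (limma adjusted p = 0.00221). Marco, a scavenger receptor among the genes most like Ccl8, was called higher in pretreated than in untreated cells, at 4.97 ± 0.61 (limma adjusted p = 0.00536). Without the restimulated C array the 5 genes most like Ccl2 were Fas (0.988), Pstpip2, Dram1, Ccl7 and Slc2a6. Car13 and Pla2g4a were no longer among them. Of the genes named for Ccl7, only Bambi-ps1 (0.982), again the first, and Ccl2 stayed among its 5. H2-T24 (0.868) was then most like Ccl8, and Marco was no longer among its 5. Mx2 (0.977) was again the gene most like Ccl12.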

How the data were processed

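RNA of 12 cultures was isolated with TriFast and labelled by Affymetrix procedure, per the labels' protocols. The values the authors deposited are intensities, 1 for each probe set on each array, and from their range the scale is linear. Program, background correction and scaling: not given in the sources used here. Of 45101 probe sets, 34945 carried 1 gene symbol, updated by Entrez identifier through RefSeq's table of GRCm38.p6 for 34741. Each of 18193 genes was represented by its probe set of highest mean over the arrays, and each chemokine had 1. Values were taken as log2(value + 16) with no further normalization and no filter on dim genes. limma 3.58.1 in R 4.3.3 fitted 4 group means on 12 arrays (8 residual degrees of freedom), with p-values adjusted by Benjamini-Hochberg over all genes. Every adjusted p-value of a gene is limma's, and ± beside a difference is its standard error.

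Same-letter arrays of different groups had correlated deviations from their group means in all 18 pairs (r 0.25 to 0.656, median 0.361), against -0.482 to 0.0134 in 36 pairs of different letters, so the letters pair the arrays. The number of arrays limits the precision. The first response and the pretreatment comparison share the untreated arrays, and other comparisons share arrays likewise. The chemokines, the gene lists and the tests were chosen with earlier results of these data known. Genes outside the set were named by list (all receptors and CC chemokines, and the largest interactions of the other lists) and by likeness. Listed genes without a probe set of their own symbol were not analysed here. Motifs and alignments used Python 3.11.15 with biopython 1.88. The fit was tested on simulated data with independent noise on each array. Those data held neither the pairing by letter nor the lower restimulated C array, so they do not bear on either. Alternatives were other normalization, pseudocounts of 1 and 64, a filter at 100, other probe set choices, the replicate block, an intensity trend, array weights and each array left out; the block with the restimulated C array left out was added after seeing the data.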

Additional observations from a re-analysis of the deposited data

How the results depend on the processing

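Over 633 alternative values of the 28 differences of the 4 genes, 589 kept their direction and their side of the threshold, 34 became called, 4 lost their call and 6 changed sign. All 504 alternative values of log ratios between the genes moved by less than the spread between replicates. The first response of Ccl2, Ccl7 and Ccl12 was called in all 12 fits without 1 array, at 3.82 to 4.27, 2.57 to 3.28 and 2.29 to 3.35.

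The replicate block made the calls of Ccl2 in the interaction (-2.98), of Ccl2 and Ccl7 in restimulated against LPS once cells (-1.96 and -1.63) and of both in restimulated against untreated cells (2.05 and 1.28), and changed no other call of the 4 genes. With the block and without the restimulated C array these values were -2.59, -1.57, -1.26, 2.43 and 1.65, all called. In restimulated against LPS once cells, Ccl7 was called under quantile normalization (-1.75) and a pseudocount of 1 (-1.77), and Ccl2 and Ccl7 under an intensity trend and with only genes of a group mean of at least 100 (-1.96 and -1.63). In restimulated against untreated cells, Ccl2 was called under quantile normalization (2.34), a pseudocount of 1 (2.20), and the trend and the filter (2.05). Array weights called the second response of Ccl2 (1.75, limma adjusted p = 0.04999), Ccl7 (1.55, 0.0171) and Ccl12 (2.15, 0.0392). They also called restimulated against untreated cells for all 3 (2.51, 1.81 and 2.51). The weight each array received is not given here. The second response of Ccl8, near 0, changed sign under quantile normalization (0.025) and array weights (0.20), and ranged from -0.17 to 0.22 without 1 array. Its difference of pretreated from LPS once cells ranged from -0.0082 to 0.38.

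Without 1 array, restimulated against LPS once cells ranged from -2.44 to -1.29 for Ccl2, -2.001 to -1.06 for Ccl7 and -2.31 to -0.81 for Ccl12. Restimulated against untreated cells ranged from 1.57 to 2.71 for Ccl2 and 0.96 to 1.85 for Ccl7, and pretreated against LPS once cells from -2.90 to -1.84 for Ccl12.

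Counts of genes called moved by over 1.5 times in places: from 53 higher and 56 lower to 26 to 130 and 25 to 159 in pretreated against untreated cells, from 121 and 234 to 1 to 198 and 0 to 463 in the second response (the lowest with only the arrays compared in the fit), from 223 and 262 to 74 to 586 and 124 to 344 in the interaction, from 451 and 578 to 251 to 761 and 341 to 675 in restimulated against LPS once cells, and from 710 lower to 407 to 973 in restimulated against untreated cells. The causes of these moves were not tested. Ccl12 was dim in untreated cells, and its first response was 3.77 at a pseudocount of 1 and 1.91 at 64.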
